A study of Mus musculus with 17 samples.

Results

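Quiescent cells of NIH 3T3, an established fibroblast line derived from mouse embryos, were treated with an inhibitor of the kinase MEK in the absence of platelet-derived growth factor (PDGF), and their RNA was measured on oligonucleotide arrays. The comparison uses 3 of the 17 arrays of the series: 1 array of untreated cells, 1 of cells given UO126 at 10 µM and 1 of cells given PD98059 at 7.5 µM, all from the MEK experiment. The 2 inhibitor arrays were taken as replicates of MEK inhibition, and genes were followed that differed from the untreated array in the same direction with both compounds. No cell in this comparison received PDGF. The control is labelled untreated and not vehicle-treated, so the effect of an inhibitor and that of its solvent cannot be told apart here. The same experiment has 3 arrays with PDGF at 25 ng/ml, alone or with either inhibitor at the same dose. A separate Src experiment on another array design has cells given vehicle, UO126 (10 µM), SU6656 (2 µM) or LY294002 (7.5 µM). Each was used without and with 1 h of PDGF. A repeat of that experiment has vehicle, PDGF, and PDGF with SU6656. The sources used here give neither how long the inhibitors acted nor the PDGF time of the MEK experiment. Each condition is 1 array of 1 cell line, and the labels name no separate cultures. The p-values therefore reflect only how far these arrays spread, and that spread may be technical. In the MEK experiment it comes only from UO126 against PD98059, without and with PDGF. The 1 untreated array adds nothing to that spread, so any deviation of that array counts as part of the effect.

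MEK1 and MEK2 are the kinases that phosphorylate and activate ERK1 and ERK2, the last step of the Ras, Raf, MEK and ERK cascade. Growth factors such as PDGF switch this cascade on, and ERK then drives immediate early genes together with feedback inhibitors of its own pathway, such as the dual-specificity phosphatases, the Sprouty and Spred proteins and Errfi1. In quiescent fibroblasts without growth factor the cascade is largely silent, and the comparison asks which transcripts differ when MEK is inhibited without the growth factor. UO126 and PD98059 both inhibit MEK1 and MEK2 without competing with ATP, and both are also known to block activation of the related MEK5 and ERK5 pathway. Klf2, a zinc-finger transcription factor of the Krüppel-like family, is a known target of that pathway through MEF2 factors in endothelial cells.

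Promoter sequences are shown for Klf2 and Baiap2l1, the genes among the 12 higher and 12 lower ones named below that lay furthest on the same side in the Src experiment. The windows are the 250 bases before the annotated start, from RefSeq on build GRCm38.p6, 5′ to 3′ on the strand of the gene. Klf2 is at chr8:72318812-72319061 on the plus strand and Baiap2l1 at chr5:144358113-144358362 on the minus strand. Capitals mark the match of the MEF2 site in Klf2 and that of the CCAAT box in Baiap2l1.
Klf2: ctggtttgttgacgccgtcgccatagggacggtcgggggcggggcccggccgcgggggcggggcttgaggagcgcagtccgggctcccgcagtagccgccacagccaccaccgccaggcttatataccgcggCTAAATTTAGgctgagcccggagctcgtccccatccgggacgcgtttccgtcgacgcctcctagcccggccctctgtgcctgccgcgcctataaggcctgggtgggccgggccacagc
Baiap2l1: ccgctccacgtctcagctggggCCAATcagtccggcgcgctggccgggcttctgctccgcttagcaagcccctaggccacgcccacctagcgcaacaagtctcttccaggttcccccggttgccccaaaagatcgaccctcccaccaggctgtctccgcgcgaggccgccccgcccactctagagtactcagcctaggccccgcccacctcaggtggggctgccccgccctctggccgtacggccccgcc
The MEF2 match begins 118 bases before the start of Klf2, and the CCAAT match 228 bases before the start of Baiap2l1. Both windows are rich in G and C, at 71.2% and 70.4%. The MEF2 site was added to the motifs after the values of Klf2 had been seen. A match is a description of the letters in the window and not evidence of binding.

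The data behind the comparison were close to each other as whole arrays. Spearman's rho over probe sets was 0.964 between the untreated and UO126 arrays, 0.968 between untreated and PD98059, and 0.975 between the inhibitors. The median intensity was 144.1, 143.1 and 144.9. The untreated array stood apart in 1 respect. Its ratio of 3′ to 5′ signal for the Gapdh control probe sets was 1.129, against 0.739 to 0.907 on the other 16 arrays of the series. The corresponding actin ratio, 1.473, lay within the 1.174 to 1.67 of the other arrays. Every value below is a difference from that array, and the part of this ratio in the results was not tested. Fibroblast markers were high, with Col1a1 at 23600.0 and S100a4 at 19268.5 on the untreated array, although the kept Vim probe set read 48.8. None of the 14 fibroblast markers measured passed the test. Of the other marker lists, 4 of 11 leukocyte, 3 of 9 epithelial, 3 of 8 endothelial and 5 of 11 adipocyte and muscle genes were measured, and none passed. Pecam1, an adhesion protein of endothelium, read 37.4 untreated, 130.6 with UO126 and 109.6 with PD98059 and is one of the genes 2-fold higher with both. The endothelial markers Eng (637.2, 677.4 and 571.8) and Flt1 (324.9, 324.5 and 247.0) did not share that direction with both. Ptprc, Epcam, Cdh5 and Adipoq, defining markers of leukocytes, epithelium, endothelium and adipocytes, were not among the genes kept.

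By the test across all probe sets, 2 of 8695 (0.023%) changed with MEK inhibition without PDGF, and 721 (8.29%) had an unadjusted p under 0.05. Pim3, a serine/threonine kinase of the PIM family, rose, the only probe set to do so (0.0115%). Its normalised intensity was 55.3 in untreated cells, 443.0 with UO126 and 426.1 with PD98059. The untreated array was the low one, as Pim3 read 319.1 to 706.3 on the other 6 arrays of the 9-array table. The log2 change of Pim3 was 2.57 (SE 0.221, limma adjusted p = 0.0336), or 5.96-fold on the scale of log2(intensity plus 21.2). Bulk RNA such as this cannot separate a change in the cells expressing a gene from one in RNA per cell.

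The second was a probe set for Actb, cytoplasmic beta-actin, which fell, again the only one (0.0115%). It read 1668.1 in untreated cells, 207.0 with UO126 and 252.7 with PD98059. Again the untreated array was the one apart, since the other 6 arrays of the table lay between 165.4 and 356.9. The log2 change was -2.76 (SE 0.259, limma adjusted p = 0.0336). This probe set belongs to a class that can match several transcripts. The other kept Actb probe set read 127.7, 142.4 and 224.1, a log2 change of 0.14 with UO126 and 0.72 with PD98059. The actin control probe set at the 3′ end read 31258, 32670.5 and 24303.5 as deposited. So the fall belongs to 1 Actb probe set, and the others did not share its direction with both inhibitors.

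When the untreated level was instead predicted from the other arrays, neither call remained. The prediction takes the PDGF array of the MEK experiment less the PDGF response of the repeat experiment. It assumes the same PDGF response in both experiments, although the PDGF time of the MEK experiment is not given. It also joins the noise of several single arrays, with an SE of 0.33 for Pim3. A call lost against it therefore cannot judge the untreated array. Against it the log2 change of Pim3 was 0.15 (limma adjusted p = 0.92), and that of the Actb probe set turned to 1.16 (adjusted p = 0.59). The calls were also lost with no filter on dim probe sets (limma adjusted p = 0.294 for each) and with no variance trend (0.354 for each). They were lost too without the UO126 or the PD98059 array. All these choices keep the same untreated array, and the sizes were 2.55 to 2.60 for Pim3 and -2.89 to -2.62 for Actb. In the additive fit the sizes were 1.97 for Pim3 and -1.78 for Actb, and neither passed (limma adjusted p = 0.355 and 0.644). In the Src experiment, whose arrays share nothing with these, UO126 minus vehicle was -0.16 for the brightest Pim3 probe set, which can match several transcripts. Under PDGF the UO126 change of that probe set was 1.35, and its additive UO126 effect was 0.59 (SE 0.297, limma adjusted p = 0.603). Other Pim3 probe sets had 0.09 and 0.04 without PDGF. The brightest Actb probe set there read 34147.2 to 37749.3 on all 8 arrays, near the top of the scale, and is not used to judge Actb. Another Actb probe set read 2558.0 with vehicle and 1898.7 with UO126, a log2 change of -0.42, and its additive UO126 effect was -0.52 (SE 0.116, limma adjusted p = 0.277).

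Of 6366 genes, each at its brightest kept probe set, 73 (1.15%) were at least 2-fold higher with both inhibitors and 28 (0.44%) at least 2-fold lower. These 101 genes are called the higher and the lower genes here. The count is a description, because both differences use the same untreated array. UO126 alone gave 161 genes 2-fold higher (2.53%) and 115 lower (1.81%), and PD98059 alone 144 (2.26%) and 103 (1.62%). Among the higher genes the median log2 change was 1.41 with UO126 and 1.31 with PD98059. Among the lower genes it was -1.44 and -1.35. At the edge of the threshold, Ensa was just inside at 1.20 and 1.01 and Sema3c just outside at 1.40 and 1.00. On the lower side Aloxe3 was just inside at -1.02 and -1.30, and Ehd1 just outside at -1.0 and -1.13.

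**Figure D1:**
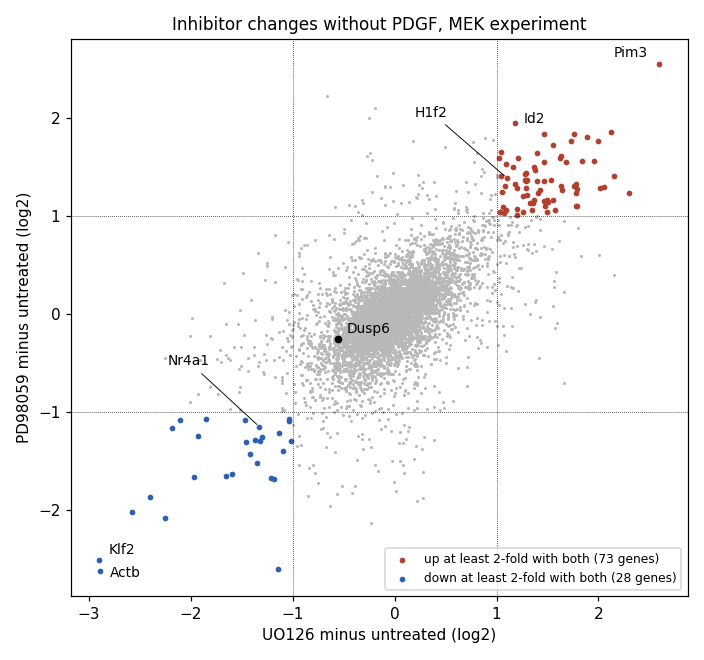
Log2 change with UO126 (horizontal axis) against PD98059 (vertical axis), each relative to the 1 untreated array, 1 dot a gene, 6366 genes. Red dots are the 73 genes at least 2-fold higher with both and blue dots the 28 at least 2-fold lower; dotted lines mark 2-fold, and both axes share the untreated array. Pim3 and Actb lie at the ends, and Dusp6 (black) lies near the centre at -0.56 and -0.26.

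Most of the higher genes were dim in untreated cells. Their median intensity was 26.5 on the untreated array, 118.3 with UO126 and 102.9 with PD98059, and 55 of the 73 read under 50 untreated. The lower genes showed the mirror image, with medians of 143.8 untreated, 36.8 with UO126 and 35.6 with PD98059. Only 10 of the 73 and 4 of the 28 read over 100 on all 3 arrays. The untreated array was the lowest of the 6 arrays of the MEK experiment for 63 of the 73 higher genes (17.5% of all genes) and the highest for 21 of the 28 lower ones (21.3% of all genes). The selection favours such genes, so these shares describe the members. Where the vehicle array of the repeat experiment is read instead, the medians were 93.7 for the higher and 82.3 for the lower genes, between those of the untreated and inhibitor arrays. Against the predicted untreated level, 52 of the 73 stayed above 0 with both inhibitors (41.3% of all genes were) and 21 stayed 2-fold (3.02%), and 18 of the 28 stayed below 0 (40.5%) and 8 of them 2-fold (2.86%). That comparison uses the same inhibitor arrays that chose the members, so the selection favours these shares too and they are no separate support. Few members had another kept probe set. Of 3 such sets for higher genes, 1 lay on the same side with both inhibitors (Grb10, 1.30 and 0.87), and of 4 for lower genes also 1 (Sh3bgr, -0.59 and -0.86).

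After Pim3, the higher genes with the largest change were of many kinds. Pvr, a nectin-like adhesion receptor, went from 72.0 to 323.7 with UO126 and 306.3 with PD98059, although the PDGF array read 757.2. Cyp1a1, the monooxygenase induced by the aryl hydrocarbon receptor, read 12.5, 93.1 and 99.7. Pklr, the pyruvate kinase of liver and red cells, read 38.1, 235.8 and 194.8. In all 3 the untreated array was the lowest of the MEK experiment, and none passed the test (limma adjusted p = 0.274, 0.438 and 0.35). Baiap2l1, which couples membrane curvature to actin, read 28.1, 129.8 and 127.3. Its effect of 1.60 became 0.03 against the predicted untreated level. The remaining ones, Ctrl and Cela2a (pancreatic proteases), Ifit3 (interferon-induced), Gli2 (a Hedgehog transcription factor), Inha (an inhibin subunit), Adam17 (the protease that sheds TNF and EGF family ligands) and Map3k11 (a kinase upstream of JNK), read 10.3 to 51.7 untreated and 75.1 to 239.6 with an inhibitor.

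The lower genes after Actb were led by Klf2. Wfdc18, Ramp3 (a partner of calcitonin-family receptors), Prr5 (a subunit of the mTORC2 complex), Bsn (a presynaptic scaffold), P2rx6 (an ATP-gated channel), Msc (a helix-loop-helix repressor), Prm3, Cyp27b1 (which activates vitamin D), G0s2 (an inhibitor of adipose triglyceride lipase) and Dlg3 (a membrane scaffold) followed. They read 102.1 to 285.1 untreated and 13.3 to 62.7 with an inhibitor. None of these 10 passed the test. Nr4a1, an orphan nuclear receptor and immediate early gene, was among the few bright members. It read 1314.6 untreated, 509.1 with UO126 and 579.4 with PD98059, a log2 change of -1.24 (SE 0.167, limma adjusted p = 0.134). The vehicle array of the repeat read 333.4, below both inhibitor arrays. Against the predicted untreated level the changes were 0.05 and 0.23, the opposite sign, and Nr4a1 was named here after its values were seen.

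**Figure D2:**
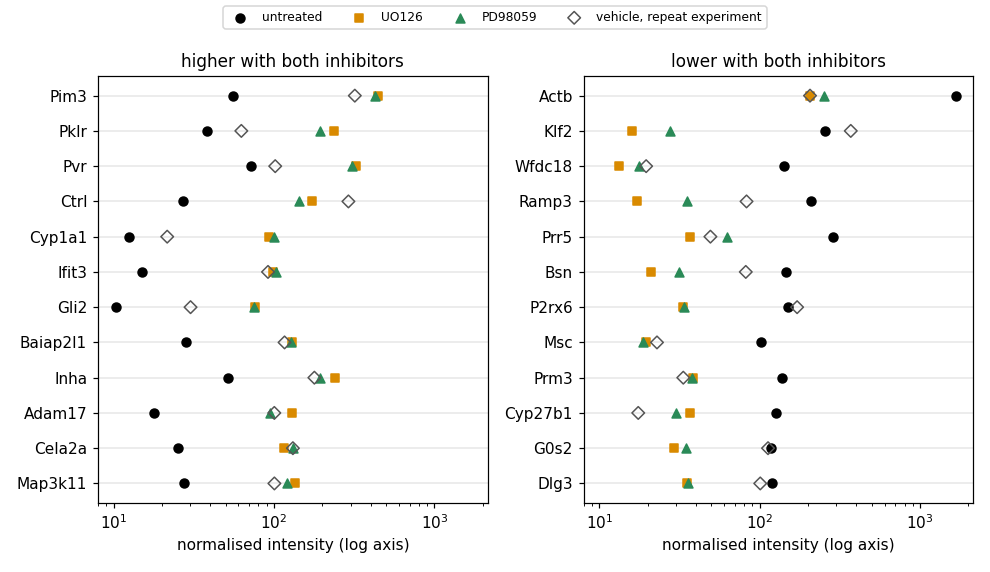
Normalised intensity on a log axis for the 12 genes with the largest change upward (left) and downward (right) with both inhibitors, 1 point an array: untreated, UO126, PD98059 and the vehicle array of the repeat experiment. The untreated point lies apart from both inhibitor points in every row, and the vehicle diamond falls on the inhibitor side for some genes (Pim3 at 319.1, Actb at 205.9) and on the untreated side for others (Klf2 at 369.6, G0s2 at 112.7).

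Klf2 had the largest decrease after Actb. Among the 14 lower genes measured in the Src experiment, it had the only 2-fold decrease shared with it. Its intensity was 256.7 in untreated cells, 16.1 with UO126 and 27.7 with PD98059. The other 6 arrays of the table read 199.6 to 369.6, so both inhibitor arrays without PDGF were the low ones and the untreated array was not. The log2 change was -2.70 (SE 0.34), which missed the threshold (limma adjusted p = 0.124). It passed with intensities as deposited (limma adjusted p = 0.0429) and in an additive fit over the 9 arrays (adjusted p = 0.0347). It did not pass with median scaling (adjusted p = 0.0858), no filter on dim probe sets (0.492) or no variance trend (0.354). Nor did it pass without the UO126 or the PD98059 array, where the log2 changes were -2.51 and -2.90. Against the predicted untreated level the change was -3.29 (adjusted p = 0.41). With PDGF present the decrease was not seen. Klf2 read 276.8 with PDGF, 318.1 with UO126 added and 199.6 with PD98059 added, changes of 0.19 and -0.43. The difference between the effects was 2.58 (SE 0.481, limma adjusted p = 0.533).

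The Src experiment showed the same arrangement for Klf2 on its own scale. It read 1893.5 with vehicle and 448.9 with UO126, a log2 change of -1.99. With PDGF it read 1777.0, and 2373.4 with PDGF and UO126, a change of 0.41. UO126 without PDGF was the lowest of the 8 arrays, which otherwise ranged from 1777.0 to 4332.0, the highest being LY294002. An additive fit, which assumes 1 UO126 effect in both backgrounds, gave -0.79 (SE 0.499, limma adjusted p = 0.688). The 3 MEK-inhibitor arrays without PDGF thus held the lowest Klf2 values of their tables, with 1 array a condition.

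**Figure D3:**
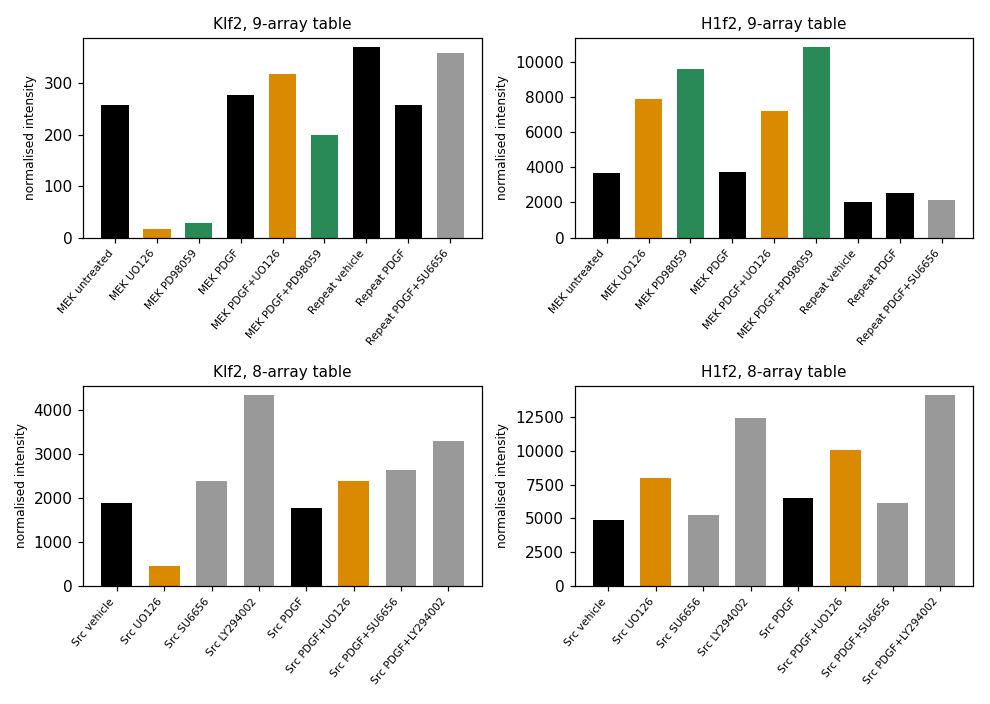
Normalised intensity of Klf2 (left) and H1f2 (right) on each array of the 9-array table (top) and the 8-array table (bottom), from 0, with 1 bar an array and no error bar. Black bars are untreated, vehicle or PDGF alone, orange bars hold UO126, green bars PD98059 and grey bars other inhibitors. Klf2 is lowest with a MEK inhibitor without PDGF (16.1 and 27.7, and 448.9), and H1f2 is higher with a MEK inhibitor in both backgrounds.

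H1f2 encodes the linker histone H1.2. Of the 51 higher and 14 lower genes measured in the Src experiment, it was the only one to pass the test there. Without PDGF it read 3664.4 untreated, 7886.4 with UO126 and 9607.1 with PD98059, a log2 change of 1.24 (SE 0.249, limma adjusted p = 0.296). With PDGF it read 3761.3, then 7201.2 with UO126 and 10854.2 with PD98059, changes of 0.93 and 1.52. All 4 MEK-inhibitor arrays lay above all 5 others of the table, the highest of which read 3761.3. The difference between the effects without and with PDGF was -0.01 (SE 0.353). In the Src experiment H1f2 read 4885.8 with vehicle and 8019.9 with UO126, and 6477.0 with PDGF and 10080.1 with PDGF and UO126. The UO126 effect there was 0.67 (SE 0.078, limma adjusted p = 0.037). With LY294002, an inhibitor of PI 3-kinase, H1f2 read higher still, at 12441.9 without PDGF and 14107.9 with PDGF. Other H1f2 probe sets of that array design had UO126 changes without PDGF of 0.42 and -0.16, beside 0.71 for this one. Their additive UO126 effects were 0.58 (SE 0.139, limma adjusted p = 0.313) and -0.21 (SE 0.316, adjusted p = 0.893). The last set was dim, at 120.1 with vehicle. So the probe sets differ, and linker histone genes resemble each other in sequence. Of 13 histone genes listed, 3 were measured, and H2ax had 0.25 and 0.10 and H2az1 0.03 and -0.25.

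Across the members as a whole, the shares that kept their direction in the Src experiment were near those of all genes. Of the 51 higher genes measured there, 29 were above 0 with UO126 (51.7% of all 5537 genes in both tables), with a median of 0.06. Of the 14 lower genes, 7 were below 0 (48.1% of all), with a median of 0.02. The Actb value counted here, -0.12, is from the probe set near the top of the scale. A 2-fold change in the same direction was seen for 1 of the 51 (Slc35g3, 1.41; 0.686% of all genes) and 1 of the 14 (Klf2; 1.17% of all), and none was 2-fold the other way. H1f2 was the 1 member past the test (0.0542% of genes in both tables), where 7 of 15838 probe sets passed (0.0442%), 3 upward (0.0189%) and 4 downward (0.0253%). Over all genes, Pearson's r between the UO126 change in the MEK experiment and in the Src experiment was 0.04, and for PD98059 0.02. These are across genes, which are not replicates, and the array designs differ in probes.

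**Figure D4:**
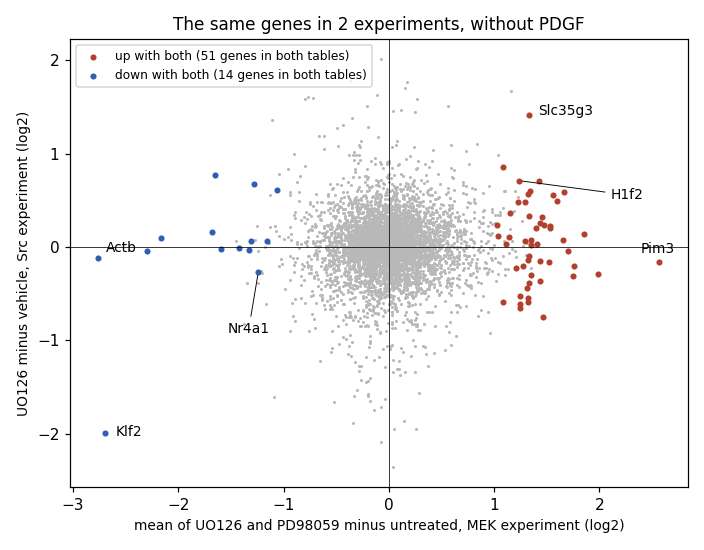
Mean log2 change with both inhibitors in the MEK experiment (horizontal axis) against UO126 minus vehicle in the Src experiment (vertical axis), 1 dot a gene, 5537 genes. Red dots (51 higher genes) and blue dots (14 lower genes) scatter around 0 on the vertical axis, with medians of 0.06 and 0.02; Klf2 lies low on both axes and H1f2 is above 0 on both.

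With PDGF present, members lay on either side. Of the 73 higher genes, 33 were above 0 with both inhibitors (34.9% of all genes) and 21 below 0 with both (31.7%). Of the 28 lower genes, 11 were below 0 with both and 10 above. The median effect was 0.13 and 0.02, beside 0.01 over all genes. No probe set passed the test of MEK inhibition with PDGF (600 of 8695, 6.9%, at an unadjusted limma p under 0.05), and none passed the test of the difference between backgrounds (452, 5.2%). For the called genes that difference was 3.09 (Actb, limma adjusted p = 0.345) and -2.04 (Pim3, adjusted p = 0.357).

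A few members did behave alike in both backgrounds. Both inhibitors were at least 2-fold in the same direction with PDGF for 5 higher genes (1.15% of all genes were 2-fold up with both) and 2 lower ones (0.55% down). Ctrl read 27.0, 171.9 and 143.1 without PDGF and 16.4, 140.3 and 167.0 with it, in the order control, UO126, PD98059. Baiap2l1 read 30 with PDGF, 135.8 with UO126 added and 114.3 with PD98059 added, close to its values without PDGF. The vehicle array of the repeat read 291.1 for Ctrl and 116.4 for Baiap2l1, so both genes were as bright there without an inhibitor. G0s2 read 117.3, 29.1 and 34.7 without PDGF and 114.0, 23.2 and 23.0 with it. In that gene both controls, and the vehicle array of the repeat at 112.7, lay above all 4 inhibitor arrays. The log2 effects of G0s2 were -1.38 (SE 0.402, limma adjusted p = 0.441) and, with PDGF, -1.61 (SE 0.402, adjusted p = 0.426). The others were Mecom, Sntb2 and Nudt5, higher, and Prr5, lower. Adgrg3 and Cd70 were 2-fold lower with both inhibitors without PDGF and 2-fold higher with both under PDGF.

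Most members differed by less than 2-fold between PDGF and vehicle in the repeat experiment. Of the 73 higher genes, 15 were at least 2-fold higher with PDGF and 8 at least 2-fold lower (3.69% and 3.58% of all genes), with a median of 0.18. Of the 28 lower genes, 4 were higher and 4 lower, with a median of -0.06, beside -0.03 for all genes. Those counts come from single arrays of mostly dim genes. Among them were Nr4a1, at 333.4 with vehicle and 7863.2 with PDGF, and Ereg, an EGF-family ligand named after its values were seen, at 61.0 and 1298.7. Ereg was higher with both inhibitors without PDGF (26.0, 113.5 and 83.0) and lower with both under PDGF (740.6, 281.5 and 416.2). Its difference between backgrounds missed the threshold (limma adjusted p = 0.533). Ereg was below vehicle with UO126 in the Src experiment, at -0.39.

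The feedback regulators of ERK showed small values without PDGF. Of 20 listed, 11 were measured, none passed the test (0.0314% of all genes did), 2 were above 0 with both inhibitors and 3 below, and the median effect was -0.06 (-0.02 for all genes). Dusp6, the phosphatase that inactivates ERK, read 74.5 untreated, 43.7 with UO126 and 58.8 with PD98059. Its log2 effect was -0.41 (SE 0.227, limma adjusted p = 0.702). With PDGF it read 2353.5, then 678.2 and 729.8, an effect of -1.71 (SE 0.227, limma adjusted p = 0.135). Before PDGF, Dusp6 was below the untreated array's median of 144.1, and the added constant shrinks a log2 change at such levels. Errfi1, an inhibitor of the EGF receptor, had -0.16 and -0.22 without PDGF and -1.75 and -1.21 with it. Spred2 had -0.33 and -0.09. Dusp1, Dusp2, Dusp8, Dusp16, Spry4 and Phlda1 lay on opposite sides with the 2 compounds. Rgs2 (0.36 and 0.30) and Rasa1 (0.26 and 0.26), which speed GTP hydrolysis by heterotrimeric G proteins and by Ras respectively, were above 0 with both. With UO126 in the Src experiment the median of the list was -0.39, and Dusp6 had -0.98.

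**Figure D5:**
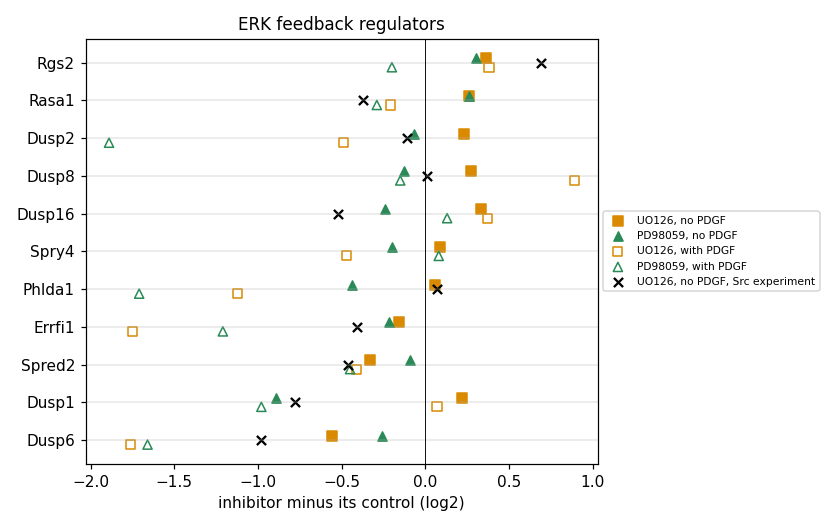
Log2 difference of each inhibitor array from its control for the 11 ERK feedback regulators measured, 1 symbol an array pair: filled symbols without PDGF, open symbols with PDGF, squares UO126, triangles PD98059, crosses UO126 in the Src experiment. Filled symbols lie near 0 for most genes, and open symbols lie to the left for Dusp6 (-1.76 and -1.66) and Errfi1 (-1.75 and -1.21).

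Other ERK-responsive genes lay on both sides. Of 40 listed, 28 were measured and none passed the test. With both inhibitors 7 were above 0 and 12 below (34.6% and 37.2% of all genes), with a median of -0.11. Jun read 583.3, 343.3 and 319.2, Sgk1 1978.8, 1489.8 and 1440.3, and Egr1 280.9, 160.9 and 215.6, in the order untreated, UO126, PD98059. All 3 were lower with both compounds, and their adjusted limma p-values were 0.389, 0.548 and 0.599. Upward, Ereg (1.51 and 1.14), Epha4 (0.96 and 0.63) and Myc (0.60 and 1.26) were highest with both, none past the test, and these were named after their values were seen. The cell cycle list had 7 above 0 and 6 below of 25 measured, and the list of growth arrest genes 10 and 6 of 27, Klf2 among them.

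In some lists most measured members lay on 1 side, with no member past the test. Over all genes, 34.6% were above 0 and 37.2% below 0 with both inhibitors, and 51.7% were above 0 in the Src experiment; no list was tested against these shares. Of 8 genes of the aryl hydrocarbon receptor battery measured, 5 were above 0 with both inhibitors and 1 below, with a median effect of 0.44. With PDGF the median effect of this list was -0.15. Cyp1a1, described above, was dim at 12.5 untreated and has no value in the Src experiment. Tiparp, which modifies the receptor and restrains it, read 161.1, 371.4 and 320.3 (limma adjusted p = 0.3). Under PDGF, where it read 2124.8, Tiparp was lower with both inhibitors, at 985.5 and 1100.5. Arnt, the partner of the receptor, had 1.01 and 0.96, and Nqo1, a quinone reductase, 0.46 and 0.78. In the Src experiment 5 of 6 genes of this list were above 0 with UO126, with a median of 0.30. NRF2 and glutathione genes had 8 above 0 and 1 below of 13, led by Gstm2 (0.59 and 0.87), and 11 of 13 above 0 in the Src experiment, with a median of 0.20. Genes of ATF4 and amino acid supply had 12 above and 6 below of 20, and 15 of 20 above 0 in the Src experiment. Slc7a1, a cationic amino acid transporter, read 9.8, 60.7 and 75.5, and Atf3 701.9, 1099.6 and 1263.8. Ribosome biogenesis genes lay more often on the other side, with 12 of 21 below 0 and 5 above, led by Gar1 (-0.75 and -0.72), yet 11 of 21 were above 0 in the Src experiment.

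The TGF-beta family list held 3 of the higher genes among 22 measured (1.15% of all genes are higher genes), which was not tested. Id2, an inhibitor of helix-loop-helix transcription factors, read 262.7 untreated, 623.6 with UO126 and 1073.9 with PD98059. With PDGF it read 432.1, then 788.4 and 996.4, so each inhibitor array lay above its own control. Its effect without PDGF was 1.57 (SE 0.325, limma adjusted p = 0.306), and 0.65 against the predicted untreated level. The untreated value was the lowest of the MEK experiment, and the vehicle array of the repeat read 500.9. The other members were Acvr1 (22.0, 75.1 and 101.1) and Smad3 (13.8, 67.8 and 51.8), a receptor and a signal transducer, both dim. Over the list 9 were above 0 and 8 below. FOXO targets had 8 above and 4 below of 15, with the growth arrest gene Gadd45a at 427.5, 767.9 and 1377.7. Sterol and fatty acid genes had 11 above and 6 below of 19, with Nsdhl, of cholesterol synthesis, at 1892.3, 3567.0 and 3027.2 (limma adjusted p = 0.32). In the SRF and actin list 10 of 21 were below 0, and its 1 call was the Actb probe set described above. The other kept Actb probe set did not share that fall. The same Actb call was the only 1 of the housekeeping list, where Hprt had 0.26 and 0.35. Interferon, NF-kB, heat shock, matrix, glycolysis, p53 and ERK pathway lists had no called gene and medians from -0.06 to 0.11.

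Motif searches covered both strands of 300 bases, from 250 before to 50 after the start, in 57 higher and 17 lower genes with a promoter entry. The ETS site (CCGGAAG) was found in 4 of the 57 and 1 of the 17, beside 18.5% of the 5120 measured genes and 9.12% of all 27025 promoters. The E-box (CACGTG) was in 5 and 1 (10.8% and 7.24%), and the XRE core (TNGCGTG) in 3 and 1 (8.42% and 5.12%). The CCAAT box was in 21 and 8 (38.8% and 37.9%). The AP-1 site (TGANTCA) was in 3 and 0, the CRE (TGACGTC) in 1 and 0, the FOXO site (GTAAACA) in 2 and 1, the CArG box in 2 and 0 and the MEF2 site in 2 and 1. For these the shares of measured genes were 5.37%, 5.68%, 2.42%, 1.5% and 1.39%, and those of all promoters 7.93%, 3.33%, 3.55%, 1.57% and 3.26%. Klf2 is the lower gene with a MEF2 match. The E-box and the XRE core both hold the letters CGTG, but the base before them differs, so 1 CGTG cannot serve both.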

How the data were processed

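The authors deposited intensity, linear and above 0 for every probe set, in tables of 9 and 8 arrays, per the file headers. With 2% trimmed from either end, array means were near 500.3, so the deposited intensity had been scaled. The sources used here name no software or genome build. No column was left unused. The platform annotation gave 1 gene for 10855 of 12488 probe sets of the 9-array table, several for 396 and none for 1237, and 10839 symbols came from Entrez IDs matched to RefSeq (GRCm38.p6, used for names and promoters).

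Within each table, control probe sets were left out, values were quantile normalised, and log2(intensity + the 20th percentile of the table) was taken (21.2 in the 9-array and 36.3 in the 8-array table). Probe sets in the lowest 30% of mean intensity were dropped (8695 and 15838 remained). A log2 change on this scale understates the change of dim genes. limma 3.58.1 in R 4.3.3 fitted group means over the 9 arrays with 2 residual degrees of freedom, from UO126 against PD98059 in both backgrounds, and eBayes with a trend. Benjamini-Hochberg adjustment covered all kept probe sets, with a threshold of 0.05. In the 8-array table an additive fit gave the UO126 effect. The script was tested on simulated data. Pooling the compounds puts any difference between them into the error.

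Genes were taken at their brightest kept probe set with 1 gene. Named genes were the 12 up and 12 down with the largest smaller change of both inhibitors, those past the threshold, the measured ERK feedback regulators, and up to 4 leading members of each other list. Members and lists were chosen with earlier results of these data known. Alternatives were other normalisations, pseudocounts, filters, models and fold sizes, and leaving out each array. The number of arrays limits the precision.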

Additional observations from a re-analysis of the deposited data

Results flagged for a closer look

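Some of the genes with the largest changes without PDGF had effects of the opposite sign with PDGF, with both inhibitors on the other side of 0. The mean log2 effect with PDGF was -0.45 for Inha and -1.04 for Map3k11, both higher without PDGF. It was 0.34 for the Actb probe set, 0.46 for Ramp3, 0.69 for P2rx6 and 0.18 for Cyp27b1, all lower without PDGF. The difference between the backgrounds passed the threshold for none of the 6 (limma interaction term, adjusted p = 0.345 to 0.892).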

How the results depend on the processing

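Without PDGF, 2 probe sets were called in the reported analysis. The number was 4 with intensities as deposited, 0 with no filter on dim probe sets, 1 without probe sets that can match several transcripts, 0 with no variance trend, 1 in the additive fit, and 0 to 7 when each array was left out in turn: 7 without either PDGF plus inhibitor array, 1 without the untreated array (its level then predicted), and 0 without UO126 or PD98059. With PDGF, and for the difference between backgrounds, the count of 0 became at most 1 (0 to 1) when an array was left out. The 73 genes 2-fold higher with both became 9 with the pseudocount at the 40th percentile, 17 with the lowest 50% of probe sets left out, 192 with the predicted untreated level, 250 at 1.5-fold and 8 at 3-fold. The 28 lower genes became 10, 6, 182, 126 and 8 under the same choices, and 66 with no filter. The predicted level shared 21 and 8 genes with the reported ones. Called list members went from 1 to 2 with intensities as deposited.

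When each array was left out in turn, 15 of the genes named by rule changed sign, with log2 changes of Ifit3 -0.93 to 1.77, Inha -1.60 to 1.84, Map3k11 -0.81 to 1.68, Actb -2.89 to 1.16, Wfdc18 -2.25 to 1.07, Msc -1.63 to 1.92, Prm3 -1.43 to 0.50, Dusp1 -0.89 to 0.22, Dusp2 -0.07 to 0.99, Dusp8 -0.13 to 0.27, Dusp16 -0.33 to 0.33, Spry4 -0.20 to 0.71, Phlda1 -0.44 to 0.06, Rgs2 -0.15 to 0.36 and Rasa1 -0.51 to 0.26. For Ifit3, Inha, Map3k11, Actb, Wfdc18, Msc, Prm3, Rgs2 and Rasa1 this was without the untreated array alone. In the additive fit Dusp16 was -0.05 and Spry4 0.13. The causes were not tested. Of the other single-gene values, 499 kept direction and side of the threshold, 11 lost and 4 gained a call. Only Pim3 and Actb had a call to lose, and all 4 gains were of Klf2. The 499 take no account of size, as Baiap2l1 went from 1.60 to 0.03 without the untreated array. No paired analysis was possible because each condition has 1 array and the labels give no replicate numbers. The effect with PDGF and the difference between backgrounds have no value without the PDGF array, nor has the count with both inhibitors without one of them.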
